A study of Mus musculus with 13 samples.

Results

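The open chromatin of 40 genes of the Wnt signalling pathway was followed across the cell types of the mouse kidney by snATAC-seq, at P0 and in adult mice. The genes were taken by name and comprised 19 Wnt ligands, 10 Frizzled receptors, 4 R-spondins, the 3 secreted inhibitors Sfrp1, Sfrp2 and Dkk1, the 2 nuclear factors Lef1 and Tcf7, and the 2 pathway targets Axin2 and Lgr5. They were 40 of the 32949 genes with an open chromatin peak in their window, which was the gene body and the 2 kb upstream of it, and these windows held 310 of the 300755 peaks. Nuclei came from whole kidneys, in 2 samples of P0 mice, 1 sample of 3-week-old mice (P21) and 2 samples of 8-week-old mice (P56). P21 and P56 formed the adult group, as in the study, and the labels name no genotype, strain, sex or treatment for any of these groups. Nothing in the sources used here says whether the samples of a stage came from separate animals, so the p-values measure only the spread between these samples. The scRNA-seq and bulk ATAC-seq samples of the same study were not analysed here.

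Wnt proteins are secreted, lipid-modified ligands that bind Frizzled receptors on the same or neighbouring cells. In the canonical branch of the pathway β-catenin then enters the nucleus, where TCF and LEF factors switch on targets such as Axin2, while other Wnts act on cell polarity and movement. R-spondins, which bind Lgr receptors, keep Frizzled receptors at the cell surface, secreted frizzled-related proteins bind Wnts outside the cell, and Dkk1 blocks the LRP co-receptors. In kidney development, Wnt9b made by the ureteric epithelium and Wnt4 made by the progenitors drive the formation of nephrons, Wnt11 acts at the ureteric tips, and Wnt7b of the collecting duct shapes the medulla.

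Of the 28316 nuclei deposited, 27652 lay in 13 clusters that the authors named, and the 664 others were left out. The clusters are nephron progenitors (NP), podocytes (Podo), the convoluted (PCT) and straight (PST) parts of the proximal tubule, the distal convoluted (DCT) and connecting tubule (CNT), the loop of Henle (LOH), principal (PC) and intercalated cells (IC) of the collecting duct, endothelial cells (Endo), immune cells, and 2 stromal clusters. Samples held 3361 to 7129 nuclei and 16980853 to 43794155 open calls, where an open call is a nucleus scored as open at a peak. The median nucleus had 6203 and 6737 open peaks in the P0 samples, 4153 at P21, and 3371 and 6178 at P56, so that depth differed between the stages. In endothelial nuclei the medians were 7195.5 and 6508.5 at P0 and 2099, 2441.5 and 2306 in adult. In PST the deepest sample was a P56 sample, at 12173. Each cluster of each sample held at least 39 nuclei, and 477 barcode sequences occurred in more than 1 sample. No doublet removal is given in the sources used here for the snATAC-seq nuclei and none was done here, so that nuclei with the markers of more than 1 cell type stayed in the sums. Gene activity is the number of open calls in a gene's window per 1000000 open calls of that cluster and sample (CPM). Windows ran from 4.29 kb for Fzd9 to 152 kb for Rspo2, so that levels were compared between clusters and stages within a gene and not between genes.

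The cluster names were checked against marker genes. Uncx, a marker of nephron progenitors, was highest in NP at both stages, at 46.5 CPM at P0 and 21.2 CPM in adult. The adult NP cluster was small, with 52 nuclei in the P21 sample and 90 and 53 in the P56 samples. Its adult Uncx mean rested on 21 open calls, and its samples, at 8.65 to 30.5 CPM, overlapped those of podocytes, at 2.11 to 12.4 CPM. The other NP marker, Cited1, was at 7.20 CPM in adult NP on 7 open calls. It was higher in adult podocytes (13.2 CPM), PST (10.3 CPM) and LOH (9.27 CPM). Trpv5, the marker of the connecting tubule, had its highest adult mean in CNT (111 CPM) but its highest P0 mean in DCT, with 39.3 and 39.5 CPM against 35.3 and 37.6 CPM in CNT, so that at P0 it did not set CNT apart from DCT. The other markers had their highest mean at both stages in a cluster they mark. In the adult NP sums the loop of Henle markers Slc12a1 and Umod added up to 94.4 to 99.4 CPM, against 26.9 to 33.9 CPM in NP at P0, and of the distal convoluted tubule markers, Slc12a3 was at 64.8 to 138 CPM, against 22.2 to 22.5 CPM at P0, while Pvalb was at 0 in all 3 adult samples, against 6.55 to 7.19 CPM. These values stand beside every adult NP result that follows, and their part in those results was not tested.

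The windows of the 40 genes held 195 peaks in introns, 42 over an annotated start, 36 in UTRs, 23 in exons and 14 upstream of the start, and 37 genes had a peak over their start. Of these peaks 45, in 16 of the genes, also lay in the window of another gene, including 11 of the 13 peaks of Tcf7 and all 3 of Fzd5, and their open calls cannot be told apart between the genes. No peak was shared between members, although Wnt6 and Wnt10a lie 6.19 kb apart on chromosome 1, Wnt10b and Wnt1 11.7 kb apart on chromosome 15, and Wnt3a and Wnt9a 16.2 kb and Wnt9b and Wnt3 24.3 kb apart on chromosome 11.

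To show where in these genes cell type differences lie, 8 peaks outside exons, at most 1 per gene, were taken for the largest ratio of their highest cluster to the median of the 13 clusters, among peaks open in at least 5% of that cluster's nuclei. For 5 of them the same cluster was highest at both stages with no overlap with the other clusters, and the central 300 bp of these are printed here, a choice made after their values were seen. The sequences are the plus strand of GRCm38 (mm10), and capitals mark a match to the TCF/LEF letters CTTTGAT or CTTTGAA on either strand.
Wnt5b, intron, chr6:119498897-119499196: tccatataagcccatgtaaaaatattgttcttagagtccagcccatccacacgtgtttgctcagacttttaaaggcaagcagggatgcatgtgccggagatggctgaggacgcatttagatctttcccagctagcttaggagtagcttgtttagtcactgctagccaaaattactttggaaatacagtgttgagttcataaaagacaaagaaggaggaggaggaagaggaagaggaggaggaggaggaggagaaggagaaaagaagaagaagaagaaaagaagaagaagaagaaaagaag
Wnt9b, intron, chr11:103739271-103739570: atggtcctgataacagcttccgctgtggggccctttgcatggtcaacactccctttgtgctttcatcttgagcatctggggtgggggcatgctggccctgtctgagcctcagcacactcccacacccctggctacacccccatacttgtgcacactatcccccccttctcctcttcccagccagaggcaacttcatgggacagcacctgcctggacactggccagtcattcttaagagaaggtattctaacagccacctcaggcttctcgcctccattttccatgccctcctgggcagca
Fzd3, intron, chr14:65245596-65245895: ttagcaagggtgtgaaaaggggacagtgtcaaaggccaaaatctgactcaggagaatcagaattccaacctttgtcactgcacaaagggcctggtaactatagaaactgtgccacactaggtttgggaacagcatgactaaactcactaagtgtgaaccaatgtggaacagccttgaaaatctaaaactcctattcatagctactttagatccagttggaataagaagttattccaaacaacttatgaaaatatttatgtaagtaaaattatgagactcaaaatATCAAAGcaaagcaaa
Wnt2, upstream, chr6:18031713-18032012: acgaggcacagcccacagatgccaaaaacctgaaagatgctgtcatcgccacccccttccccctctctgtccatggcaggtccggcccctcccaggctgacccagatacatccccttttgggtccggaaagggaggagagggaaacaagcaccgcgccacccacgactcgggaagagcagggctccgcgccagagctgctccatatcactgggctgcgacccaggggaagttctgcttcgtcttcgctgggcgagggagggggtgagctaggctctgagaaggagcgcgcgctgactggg
Wnt2b, intron, chr3:104956399-104956698: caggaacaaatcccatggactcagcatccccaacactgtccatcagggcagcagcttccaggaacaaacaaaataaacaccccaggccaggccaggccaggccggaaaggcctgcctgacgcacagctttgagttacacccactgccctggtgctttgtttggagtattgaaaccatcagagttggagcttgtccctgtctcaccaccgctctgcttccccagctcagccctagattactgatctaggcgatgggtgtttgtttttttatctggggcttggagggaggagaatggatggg

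The Wnt9b peak, 10401 bp into the gene, was open in 18.3% and 20.3% of PC nuclei in the P0 samples, 8.74% in the P21 sample, and 9.02% and 14.6% in the P56 samples. The Wnt5b peak was highest in podocytes, where it was open in 1.95% and 4.97% of nuclei in the P0 samples, 6.38% in the P21 sample, and 5.10% and 7.69% in the P56 samples, which are 3 to 18 nuclei per sample. The Fzd3 peak was highest in PST, with 11.7 to 17 CPM over the 5 samples. It is the only printed sequence that holds the TCF/LEF letters. The Wnt2 peak, at -1277 bp from the start, was highest in endothelial nuclei, at 12.9 and 10.8 CPM in the P0 samples and 27.0, 31.6 and 22.0 CPM in the adult samples. The share of endothelial nuclei with it open did not rise, at 9.29% and 7.28% at P0 and 7.69%, 8.43% and 6.50% in adult. The Wnt2b peak was highest in stroma 2, with 11.6 to 18.1 CPM over the 5 samples. The other 3 chosen peaks, in introns of Wnt7b, Lgr5 and Rspo1, were highest in adult NP, in IC and in immune nuclei at P0, where only 12, 6 and 7 nuclei were open. Over all member peaks, 25 of 310 (8.06%), in 16 genes, held the TCF/LEF letters in their central 300 bp, against 12.6% of the 300693 peaks on assembled autosomes and sex chromosomes.

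**Figure D1:**
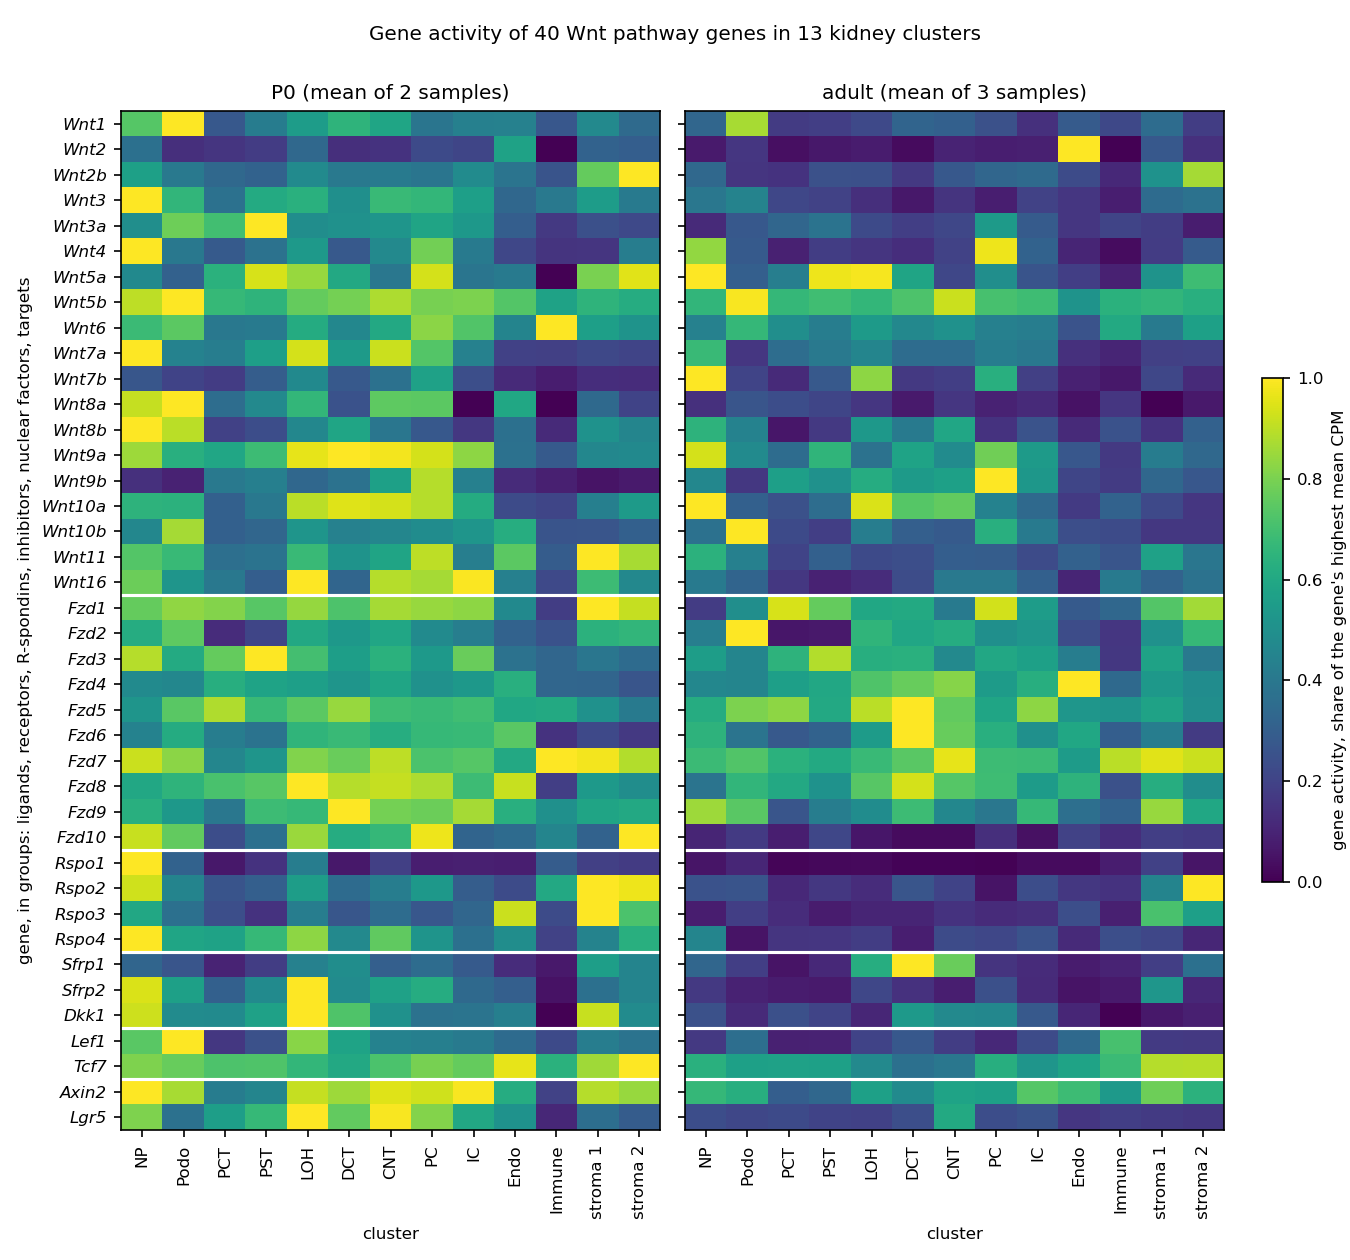
Gene activity of the 40 genes (rows) in the 13 clusters (columns) at P0, mean of 2 samples, and in adult, mean of 3 samples, coloured as the share of the gene's highest mean CPM over both stages. Rspo1 is brightest in NP at P0 and reaches at most a mean of 18.4 CPM in adult, Wnt9b is brightest in PC at both stages, and Sfrp1 is brightest in adult DCT.

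The genes of the pathway were highest in different cell types. At P0, 7 genes had their highest mean in NP, 6 in podocytes, 5 each in LOH and stroma 1, and 4 in stroma 2. For 19 of the 40 genes at P0, and for 9 in adult, every sample of the highest cluster lay above every sample of every other cluster. The same held for 48.0% of all genes at P0 and for 19.3% in adult, and the members' shares therefore lay near the background. The highest cluster was the same at both stages for 15 genes. The highest cluster itself moved with the setting, and was kept by 20 to 22 of the 40 genes at P0, and by 25 to 28 in adult, with the promoter alone, per nucleus or after thinning. Under every alternative, samples left out included, 6 genes kept it at P0 (Wnt2, Wnt4, Wnt9b, Rspo1, Rspo4 and Sfrp2) and 10 in adult (Wnt2, Wnt4, Wnt9b, Fzd2, Fzd6, Rspo2, Rspo3, Sfrp1, Sfrp2 and Lgr5). The authors formed the clusters from the open chromatin of the same nuclei, so that these orders are descriptions without a test. With only the promoter counted, 10 genes at P0 and 4 in adult had a highest cluster apart from all others, and with any 1 of the 3 adult samples left out 15 to 18 did. With a sample left out fewer values have to lie apart, so 15 to 18 is not comparable with the 9 above.

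Of the ligands of the ureteric lineage, Wnt9b had its highest activity in PC. It was at 112 and 127 CPM in the P0 samples, 105 CPM in the P21 sample, and 150 and 148 CPM in the P56 samples. The next cluster was CNT at P0, with 75.2 and 78.1 CPM, and LOH in adult, with 76.1, 80.3 and 93.8 CPM, and at both stages the PC samples lay above them without overlap. Wnt7b was also highest in PC at P0, at 118 and 134 CPM, above LOH at 107 and 102 CPM. In adult, Wnt7b was at 136, 136 and 144 CPM in PC, and the adult LOH samples, at 161, 183 and 204 CPM, all lay above them. The highest adult mean of Wnt7b was in NP (220.0 ± 36.0 CPM, SD, n = 3), whose samples overlapped those of LOH. Wnt11 led in stroma 1 at P0, with 53.6 and 50.0 CPM, followed by PC with 45.5 and 47.6 CPM.

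Wnt4, which progenitors need to become epithelium, was highest in NP at P0, with 73.3 and 71.2 CPM, and lower in PC, with 55.6 and 58.1 CPM. In adult its highest cluster was PC, with 82.8, 54.8 and 73.9 CPM, and NP, with 56.2, 54.8 and 70.5 CPM, overlapped it. Wnt8b (40.6 CPM), Wnt7a (37.6 CPM) and Wnt3 (17.8 CPM) also had their highest P0 means in NP, with Wnt7a overlapping LOH. Wnt2 was the ligand of endothelial nuclei at both stages, at 24.6 and 18.8 CPM at P0 and at 34.9, 45.8 and 32.3 CPM in adult. The next cluster reached 15.6 and 12.3 CPM at P0, in NP, and 10.2, 13.4 and 7.45 CPM in adult, in stroma 1. The endothelial samples were above all others, at 12.2 times the median cluster in adult. Wnt2b was highest in stroma 2, at 30.2 and 27.8 CPM at P0 and at 26.2, 28.2 and 20.7 CPM in adult, where stroma 1 overlapped it.

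The other ligands showed smaller or less even differences between clusters. Wnt5a, a ligand of the non-canonical branch, was near-equal at P0 in stroma 2 (48.0 ± 0.907 CPM) and PST (47.4 ± 1.53 CPM), and in adult in NP (50.3 ± 14.5 CPM) and LOH (49.7 ± 7.80 CPM). Wnt5b was open in every cluster, from 121 CPM in immune nuclei to 210.0 CPM in podocytes at P0, and podocytes led in adult as well (208 ± 44.4 CPM), overlapping CNT. Podocytes also held the highest means of Wnt1 (21.6 CPM at P0, 18.7 CPM in adult), Wnt10b (25.2 and 29.1 CPM) and Wnt8a (10.5 and 2.78 CPM). For Wnt8a in adult that rested on 3 open calls. Wnt9a and Wnt10a were highest in DCT at P0, at 81.5 and 44.3 CPM, each overlapping CNT, and in NP in adult, at 76.2 and 46.6 CPM. Wnt3a led in PST at P0 (30.3 and 40.2 CPM) and in PC in adult (19.2 ± 1.42 CPM), Wnt16 in LOH at P0 (16.2 ± 3.81 CPM, overlapping IC), and Wnt6 in immune nuclei at P0 on 29 open calls (49.6 ± 7.11 CPM). In adult the highest means of Wnt3 (7.96 CPM) and Wnt6 (33.1 CPM) were in podocytes, and those of Wnt11 (33.3 CPM) and Wnt16 (6.66 CPM) in NP, each overlapping the next cluster.

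Among the receptors, Fzd4, which endothelial cells use in vessel growth, was at 112 and 117 CPM in endothelial nuclei at P0, where PCT (108 and 120 CPM) overlapped it. In adult it was at 173, 160 and 210.1 CPM in endothelial nuclei, next to 180, 118 and 148 CPM in CNT. Fzd2 was highest in podocytes at both stages, at 63.6 and 68.7 CPM and then 109, 84.3 and 70.1 CPM, apart from every other cluster, and lowest in PCT, at 11.2 and 5.24 CPM. Fzd3 was highest in PST, at 56.9 and 60.4 CPM at P0 and at 52.2, 56.3 and 47.0 CPM in adult, and only in adult did PST stand apart from all clusters. Fzd6 led in adult DCT, at 45.9, 51.8 and 48.5 CPM, apart from the others, and at P0 in endothelial nuclei at 36.3 CPM, where DCT overlapped it.

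Fzd8 was highest in LOH at P0 (95.8 ± 6.67 CPM), apart from the rest, and in DCT in adult (89.7 ± 16.8 CPM), not apart from LOH. Fzd1, Fzd5, Fzd7, Fzd9 and Fzd10 had no cluster apart from all others at either stage. Their highest P0 means were 66.5 CPM in stroma 1 for Fzd1, 96.5 CPM in PCT for Fzd5, 80.0 CPM in immune nuclei for Fzd7, 24.1 CPM in DCT for Fzd9 and 18.6 CPM in stroma 2 for Fzd10. In adult, they were 62.4 CPM in PCT for Fzd1, 110 CPM in DCT for Fzd5, 76.9 CPM in CNT for Fzd7, 20.6 CPM in NP for Fzd9 and 3.98 CPM in PST for Fzd10.

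At P0 each of the R-spondins and inhibitors had its highest mean in NP, LOH or stroma 1. Rspo1, which amplifies Wnt signals, stood out in NP at P0, with 96.6 and 94.1 CPM against 42.5 and 38.7 CPM in LOH and 5.79 times the median cluster. Rspo4 also led in NP at P0, at 14.4 and 12.4 CPM. Rspo3 and Rspo2 were highest in stroma 1 at P0, Rspo3 at 48.1 and 56.9 CPM with endothelial nuclei close behind at 47.1 and 49.5 CPM, and Rspo2 at 20.7 and 21.4 CPM with stroma 2 at 23.5 and 17.6 CPM. In adult the highest means were in stroma 1 for Rspo3 (37.4 ± 7.08 CPM) and Rspo1 (18.4 ± 12.5 CPM), in stroma 2 for Rspo2 (21.1 ± 6.87 CPM), and in NP for Rspo4 on 6 open calls.

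Sfrp1, which binds Wnts outside the cell, was highest in stroma 1 at P0, at 69.3 and 58.7 CPM, and in DCT in adult, at 121, 114 and 108 CPM, apart from the others at both stages. Sfrp2 and Dkk1 were highest in LOH at P0, at 58.8 and 52.2 CPM and at 19.1 and 15.5 CPM, and both overlapped NP there. In adult, Sfrp2 was highest in stroma 1 (29.2 ± 13.6 CPM) and Dkk1 in DCT (9.30 ± 2.77 CPM). Lef1, a nuclear partner of β-catenin, was highest in podocytes at P0, at 141 and 108 CPM, and in immune nuclei in adult, at 138, 65.2 and 61.7 CPM on 58 open calls. Tcf7 was highest in stroma 2 at both stages, overlapping endothelial nuclei at P0 and stroma 1 in adult, and stroma 2 stayed highest in 2 of 6 alternatives at P0 and 2 of 7 in adult. Axin2, a general readout of canonical signalling, had a mean of 57.9 to 68.4 CPM at P0 in 9 clusters, the highest in NP, and was lower in endothelial nuclei (42.3 CPM), PST (31.1 CPM), PCT (28.7 CPM) and immune nuclei (13.4 CPM), and NP stayed its highest cluster in 1 of 6 alternatives. Lgr5, an R-spondin receptor, was highest in LOH (118 and 90.5 CPM) and CNT (104 and 103 CPM). In adult, Lgr5 was highest in CNT in each sample, at 76.1, 83.5 and 30.2 CPM, and Axin2 in stroma 1 at 53.4 ± 13.3 CPM.

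**Figure D2:**
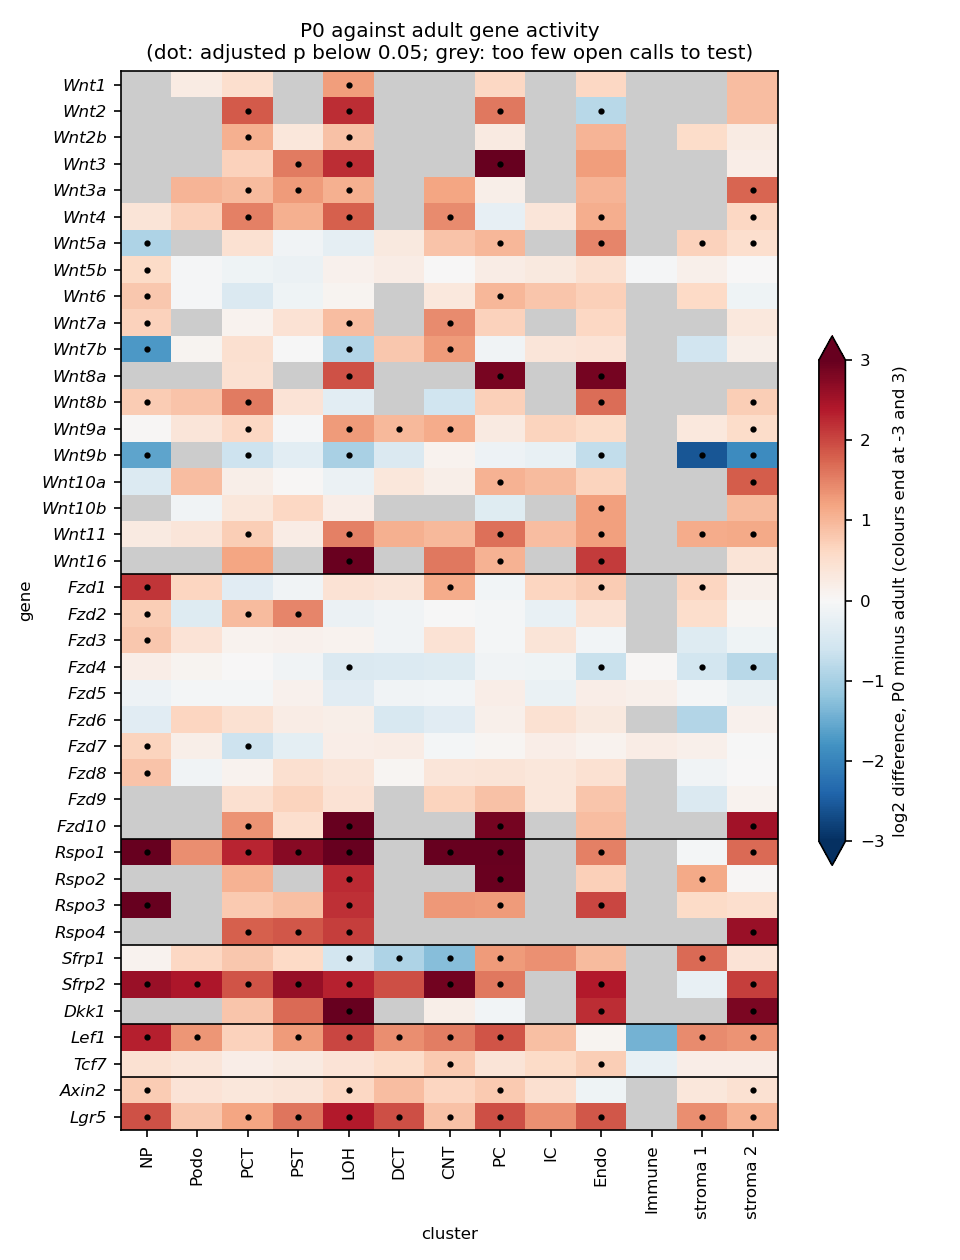
Log2 difference of gene activity, P0 minus adult, for each of the 40 genes (rows) in each of the 13 clusters (columns), red where higher at P0 and blue where higher in adult. Dots mark adjusted p-values below 0.05 in edgeR and grey marks genes with too few open calls to test, and 125 dots are on red and 18 on blue.

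Gene activity at P0 was then compared with adult within each cluster, by edgeR's quasi-likelihood test over all genes with Benjamini-Hochberg adjustment. The members were more often higher at P0 than in adult. Of their 520 gene and cluster pairs 391 had enough open calls to test, and 125 were higher at P0, 18 higher in adult and 248 not past the threshold of 0.05. Since 2 P0 samples are enough to pass the filter, a gene that is low in adult could enter on its P0 calls alone, and these counts are read only beside those of all genes under the same filter. In NP, 15 of 27 genes tested were higher at P0 and 3 in adult, against 20.8% and 18.4% of all genes. In LOH, 21 and 4 of 40 were, against 29.3% and 22.8%, in PC 17 and 0 of 39, against 17.3% and 12.3%, and in stroma 2, 15 and 2 of 39, against 20.6% and 16.6%. In endothelial nuclei, 14 and 3 of 39 were called, against 14.3% and 10.6%, in PCT 13 and 2 of 40, against 15.7% and 12.8%, and in CNT 10 and 1 of 31, against 15.2% and 9.76%. In PST, 8 and 0 of 35 were called, against 7.53% and 5.43%, in stroma 1, 7 and 2 of 26, against 16.4% and 13.8%, in DCT 3 and 1 of 21, against 4.16% and 1.37%, and in podocytes 2 and 0 of 26, against 5.07% and 5.72%.

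No member was called in IC or immune nuclei. In IC 0 of 22 genes passed with edgeR, and 7 had an unadjusted p below 0.05, while DESeq2 called 0, with 2 unadjusted, and the background was 0.737% and 0.25%. In immune nuclei 0 of 6 genes passed with either tool and 1 had an unadjusted p below 0.05. No gene at all was called there (0.0% in each direction), with 1061 of 10661 genes at an unadjusted p below 0.05 in edgeR and 235 in DESeq2. Over all clusters fewer pairs passed without 1 of the P0 samples, 57 at P0 and 9 in adult without the P0 sample numbered 1, and 61 and 9 without the other. With every nucleus thinned to 1000 open peaks 30 pairs passed at P0 and 5 in adult.

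Over all genes and clusters 14.2% of pairs were higher at P0 and 10.97% higher in adult, against 32.0% and 4.60% of the members' pairs. The R-spondins had 19 of 29 pairs higher at P0 and 0 in adult, with a median log2 difference of 1.78, but only 29 of their 52 pairs could be tested and 6 of these had under 10 adult open calls in all, so that they entered through P0, where they were high. Of all 391 pairs tested, 17 had under 10 open calls in adult and 0 at P0, and the counts and medians by role describe the pairs that passed. The inhibitors had 14 of 30 and 3, with a median of 1.47, the targets 14 of 24 and 0 (0.85), the nuclear factors 11 of 26 and 0 (0.64), and the ligands 53 of 168 and 10 (0.56). The Frizzled receptors had 14 of 114 and 5, with a median of 0.14, and both shares lay below those of all genes. The median over all members was 0.48, and the median of all genes lay between -0.04 and 0.05 in each cluster. Of the 40 genes, 35 were higher at P0 in at least 1 cluster and 7 higher in adult, 5 of them both, where 44.5% of the 28994 genes tested were higher at P0 in at least 1 cluster, 38.5% higher in adult and 8.81% both. Fzd5, Fzd6 and Fzd9 were called in no cluster.

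The largest P0 excess was in Rspo1. In NP it fell from 96.6 and 94.1 CPM at P0 to 4.32 CPM at P21 and 6.09 and 5.42 CPM at P56, a log2 difference of 4.29 ± 0.37 (SE, edgeR adjusted p = 4.7e-15). Rspo1 had 1339 open calls in NP at P0 and 5 in adult, so that it entered the test through P0. In LOH it fell from 42.5 and 38.7 CPM to 4.48, 1.06 and 1.60 CPM, a difference of 4.26 ± 0.35 on the log2 scale (edgeR adjusted p = 1.6e-05). The stages did not overlap in either cluster. In CNT 30 open calls at P0 stood against 1 in adult, a ratio of 54.1 with an exact counting interval of 9.0 to 2207. Rspo1 was higher at P0 in 8 of the 10 clusters tested, and stroma 1, where it was at 19.1 and 17.1 CPM at P0 and 6.80, 16.8 and 31.7 CPM in adult, was not among them.

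Rspo3 was higher at P0 in 4 of 9 clusters tested and Rspo2 in 3 of 6, and neither was higher in adult in any. Rspo3 in NP was at 33.2 and 29.8 CPM at P0 and 4.32, 3.05 and 5.42 CPM in adult, a log2 difference of 3.01 ± 0.51 (edgeR adjusted p = 1.4e-06). Rspo3 had 441 open calls in NP at P0 and 4 in adult, and entered the test there through P0. It was also higher at P0 in endothelial nuclei, with 47.1 and 49.5 CPM against 15.9, 11.6 and 10.2 CPM (2.00 ± 0.22, edgeR adjusted p = 0.00015), while stroma 1, its highest cluster, did not pass (0.57 ± 0.23, edgeR adjusted p = 0.058). Rspo2 in PC was at 10.8 and 11.6 CPM at P0 and 0, 1.17 and 2.11 CPM in adult (2.97 ± 0.59, edgeR adjusted p = 0.0017), a call lost without either of the P0 samples (log2 differences of 3.04 and 2.96). It rested on 60 open calls at P0 and 4 in adult, and the pair entered through P0. In stroma 2, its highest adult cluster, Rspo2 was at 20.5 CPM at P0 and 21.1 CPM in adult (0.03 ± 0.25, edgeR adjusted p = 0.94). Rspo4 passed the filter in only 4 clusters, which its P0 open calls could open, and was called in them, with log2 differences of 1.78 ± 0.33 in PCT, 1.87 ± 0.53 in PST, 2.07 ± 0.37 in LOH and 2.59 ± 0.47 in stroma 2.

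Of the inhibitors, Sfrp2 was higher at P0 in 9 of 11 clusters. In CNT it was at 29.6 and 34.0 CPM at P0 and 5.44, 4.02 and 4.23 CPM in adult, a log2 difference of 2.89 ± 0.42 (edgeR adjusted p = 0.00013). In LOH, Sfrp2 was at 58.8 and 52.2 CPM and then 14.7, 16.2 and 4.33 CPM (2.30 ± 0.35, edgeR adjusted p = 0.00031). Dkk1 in LOH was at 19.1 and 15.5 CPM at P0 and 2.56, 1.41 and 1.60 CPM in adult (3.23 ± 0.37, edgeR adjusted p = 6.9e-05). Neither overlapped between the stages. The P0 LOH sums also carried more of the NP markers Uncx and Cited1, which added up to 50.2 to 53.6 CPM against 9.13 to 18.3 CPM in adult LOH. The adult sums of these NP markers also had the lower mean in each of the other 12 clusters, with 24.6 to 25.1 CPM and then 7.04 to 11 CPM in PC, 18.9 to 29.6 CPM and then 0 to 13.1 CPM in CNT, 44.2 to 52.0 CPM and then 16.5 to 25.9 CPM in podocytes, and 11.9 to 17.3 CPM and then 4.72 to 9.52 CPM in endothelial nuclei. Their part in the P0 differences in any cluster was not tested.

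Lgr5 and Lef1 were higher at P0 across most of the kidney. Lgr5 was called in 10 of 12 clusters, from 0.88 ± 0.30 in CNT (edgeR adjusted p = 0.037) to 2.39 ± 0.27 in LOH (edgeR adjusted p = 6.7e-05), where it was at 118 and 90.5 CPM at P0 and 26.9, 22.2 and 11.4 CPM in adult. Lef1 was called in 9 of 13 clusters. It fell from 92.7 and 93.2 CPM to 21.6, 27.4 and 13.6 CPM in NP (2.34 ± 0.27, edgeR adjusted p = 7.6e-11) and from 141 and 108 CPM to 46.7, 59.0 and 28.9 CPM in podocytes (1.32 ± 0.23, edgeR adjusted p = 0.00055). In immune nuclei Lef1 was higher in the adult samples, at 138, 65.2 and 61.7 CPM against 28.8 and 27.3 CPM, but did not pass (-1.43 ± 0.40, edgeR adjusted p = 0.25). Tcf7 was called in CNT and endothelial nuclei only, and Axin2 in NP, LOH, PC and stroma 2, with log2 differences of 0.45 to 0.79.

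Among the ligands higher at P0, Wnt11 was called in 6 of 12 clusters. In PC it was at 45.5 and 47.6 CPM at P0 and 12.9, 18.6 and 14.1 CPM in adult (1.65 ± 0.22, edgeR adjusted p = 9e-05). Wnt4 was higher at P0 in LOH, at 38.0 and 40.5 CPM against 13.4, 10.9 and 9.36 CPM (1.78 ± 0.21, edgeR adjusted p = 7.3e-05), and in PCT, CNT, endothelial nuclei and stroma 2. In the clusters where Wnt4 was highest it did not pass, with log2 differences of 0.39 ± 0.20 in NP (edgeR adjusted p = 0.12) and -0.25 ± 0.16 in PC (edgeR adjusted p = 0.26). Wnt3 in PC fell from 11.6 and 12 CPM to 1.84, 1.17 and 1.41 CPM (3.03 ± 0.55, edgeR adjusted p = 0.0009), and Wnt16 in LOH from 18.9 and 13.5 CPM to 2.56, 1.76 and 1.82 CPM (2.95 ± 0.38, edgeR adjusted p = 0.00012). Wnt3 had 63 open calls in PC at P0 and 4 in adult, and entered the test there through P0. Wnt8a in endothelial nuclei had 43 open calls at P0 and 3 in adult, a ratio of 7.75 with a counting interval of 2.48 to 39.1 (edgeR adjusted p = 0.013), and this call was lost with DESeq2 and without the P0 sample numbered 1, with log2 differences of 3.07 and 3.01.

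Among the receptors the largest differences were those of Fzd10, whose only peak, over the start of the gene, also lay in the window of another gene. In LOH, it was at 16.8 and 14.9 CPM at P0 and 0.640, 1.41 and 1.37 CPM in adult (3.56 ± 0.39, edgeR adjusted p = 5.8e-05). In PC, Fzd10 was at 19 and 17.3 CPM and then 1.84, 3.50 and 2.11 CPM (2.88 ± 0.44, edgeR adjusted p = 0.00028). Fzd10 had 97 open calls in PC at P0 and 7 in adult, and entered the test there through P0. Fzd1 was higher at P0 in NP, with means of 50.8 and 11.9 CPM (2.13 ± 0.34, edgeR adjusted p = 4.3e-07), while Fzd5, which was called nowhere, kept log2 differences between -0.33 and 0.21 in the 13 clusters.

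**Figure D3:**
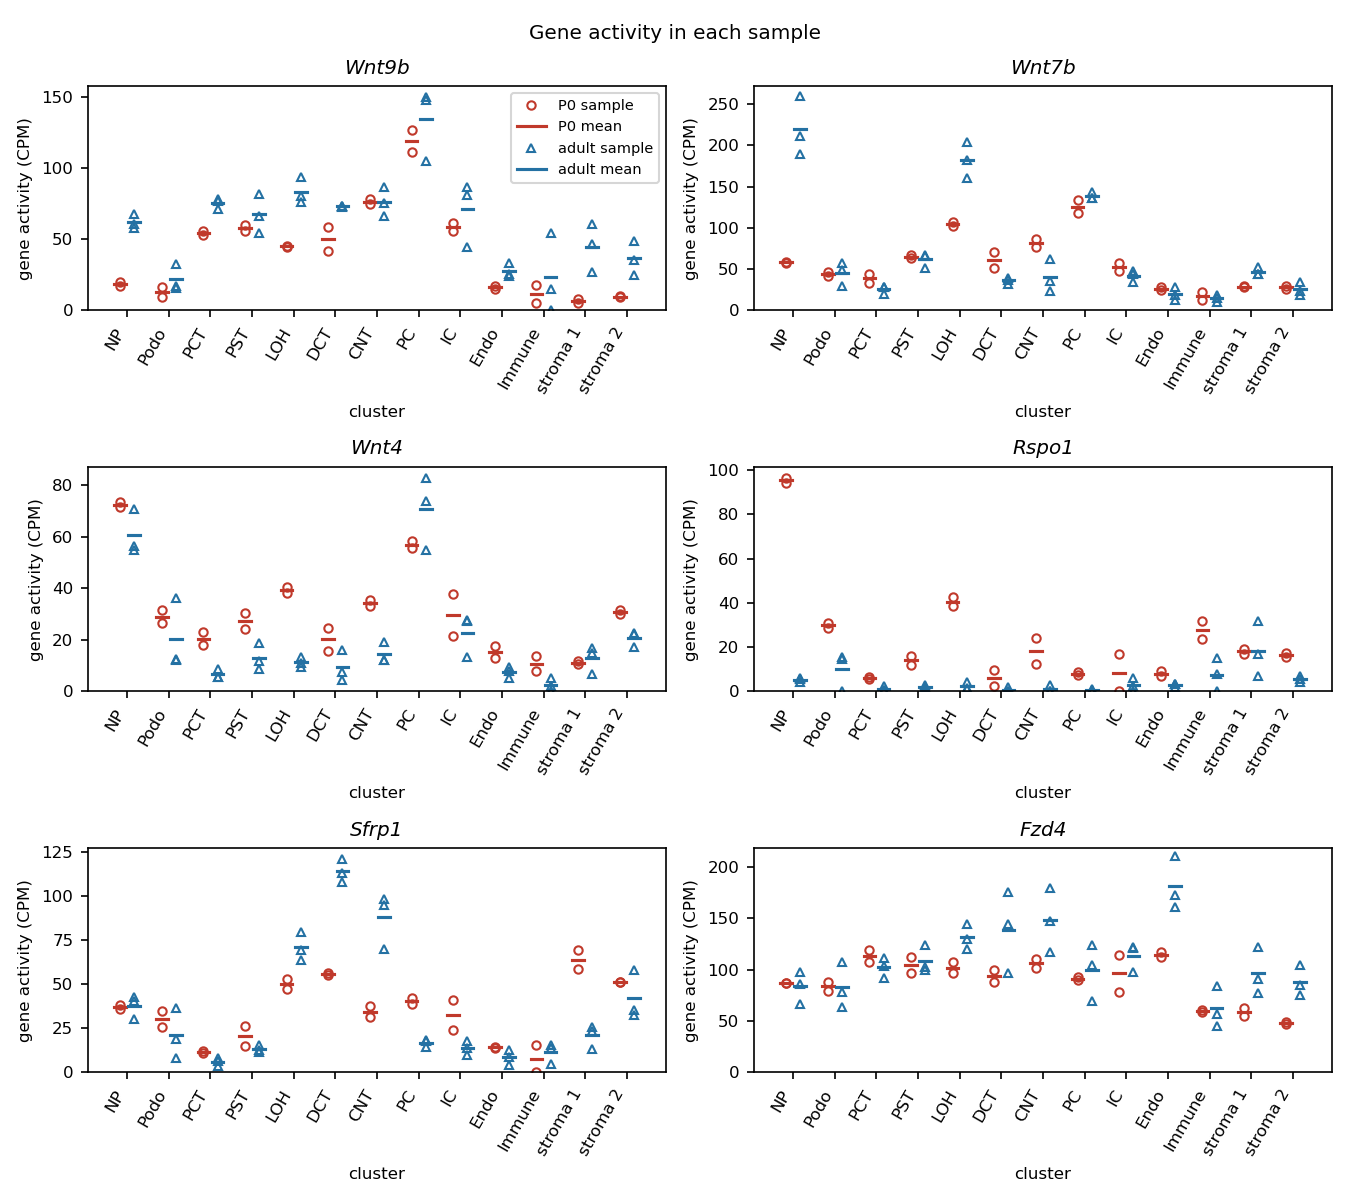
Gene activity in CPM (vertical axis, from 0) of Wnt9b, Wnt7b, Wnt4, Rspo1, Sfrp1 and Fzd4 in the 13 clusters (horizontal axis), with a symbol for each sample and a short line for the mean of 2 P0 or 3 adult samples. The adult samples lie above the P0 samples for Wnt9b in both stromal clusters, for Wnt7b in NP and LOH, for Sfrp1 in DCT and CNT and for Fzd4 in endothelial nuclei, and far below them for Rspo1 in NP and LOH.

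Wnt9b was higher in adult in 6 clusters and at P0 in none. In stroma 1 it was at 5.49 and 8.39 CPM at P0 and 61.2, 26.9 and 46.6 CPM in adult, a log2 difference of -2.56 ± 0.37 (edgeR adjusted p = 2.3e-05). In stroma 2 it was at 9.39 and 10.2 CPM and then 25, 35.6 and 49.0 CPM (-1.89 ± 0.23, edgeR adjusted p = 6.4e-05). In NP, Wnt9b rose from 17 and 20 CPM to 60.5, 57.9 and 67.8 CPM (-1.59 ± 0.25, edgeR adjusted p = 4.3e-07). In PC, its highest cluster, the difference was -0.16 ± 0.15 (edgeR adjusted p = 0.43). The summed level of 13 markers of tubule cells was also higher in these adult sums, at 219 to 391 CPM against 149.9 to 159 CPM in stroma 1, at 148 to 248 CPM against 125 to 132 CPM in stroma 2, and at 272 to 349.9 CPM against 119 CPM in NP, with 10 of the 13 at a higher mean in adult in each of these clusters. That sum was higher in adult without overlap in every cluster, and Wnt9b was called in 6 of them. In podocytes, where Wnt9b was not called, the sum was 169 to 276 CPM against 99.7 to 119 CPM. The principal cell markers Aqp2 and Fxyd4 together reached 7.45 to 13.6 CPM in adult stroma 1, against 6.54 to 8.39 CPM at P0. In stroma 2 they were at 6.38 to 14.5 CPM in adult against 6.12 to 9.77 CPM. In NP they were not higher in adult, at 8.65 to 13.6 CPM against 11.9 to 13.6 CPM. The part of all these markers in the result was not tested.

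Wnt7b was higher in adult in LOH and NP. It rose from 107 and 102 CPM to 161, 183 and 204 CPM in LOH (-0.88 ± 0.14, edgeR adjusted p = 0.00045) and from 59.1 and 58.0 CPM to 259, 189 and 212 CPM in NP (-1.72 ± 0.14, edgeR adjusted p = 8.2e-16). In LOH, Slc12a3 was also higher in adult, at 191 CPM against 47.1 CPM at P0, and the summed level of 13 tubule markers, those of LOH among them, was 662 to 814 CPM against 228 to 247 CPM, although only 6 of the 13 had the higher mean in adult. The summed level was higher in adult in every other cluster too. The part of these markers in the Wnt7b difference was not tested. In CNT Wnt7b was higher at P0, by 1.28 on the log2 scale. Wnt5a was likewise called in both directions, higher in adult in NP (-0.92 ± 0.26, edgeR adjusted p = 0.0033) and higher at P0 in PC, endothelial nuclei and both stromal clusters. The NP call of Wnt5a was lost without the P56 sample numbered 1, at a log2 difference of -0.69, and with equal nuclei per sample (-0.76). Wnt2 in endothelial nuclei was higher in adult (-0.83 ± 0.22, edgeR adjusted p = 0.017), but the call was lost in 6 alternatives, among them the gene body without its upstream 2 kb (-0.23).

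Sfrp1 was higher in adult in LOH, DCT and CNT and higher at P0 in PC and stroma 1. In DCT it was at 55.3 and 56.5 CPM at P0 and 121, 114 and 108 CPM in adult (-0.92 ± 0.21, edgeR adjusted p = 0.019), and in CNT at 37.6 and 31.5 CPM and then 95.2, 70.4 and 98.6 CPM (-1.28 ± 0.24, edgeR adjusted p = 0.00087). The DCT call was lost without either P0 sample (-0.96 and -1.01), with DESeq2 (-0.92) and with the promoter alone (-0.55), and the CNT call after thinning each nucleus to 1000 open peaks (-1.37, edgeR adjusted p = 0.22). In DCT the loop of Henle marker Umod was also higher in adult, at 55.4 CPM against 6.50 CPM (edgeR adjusted p = 0.0019), and Slc12a1 was not, at 37.4 CPM against 43.2 CPM. The connecting tubule marker Trpv5 was lower in adult DCT, at 11.8 CPM against 39.4 CPM (edgeR adjusted p = 0.02). The part of these markers in the DCT difference was not tested. The DCT markers Slc12a3 and Pvalb were also higher in the adult CNT sums, at 236 to 383 CPM against 42.1 to 55.4 CPM at P0. Trpv5, the marker of CNT itself, was higher there too, at 111 CPM against 36.4 CPM (edgeR adjusted p = 0.0001). The part of these markers in the CNT difference was not tested. In stroma 1, Sfrp1 fell from 69.3 and 58.7 CPM to 13.6, 23.5 and 26.1 CPM (1.69 ± 0.27, edgeR adjusted p = 6.7e-05), and in PC from 42.6 and 38.6 CPM to 14.7, 18.6 and 17.6 CPM (1.27 ± 0.21, edgeR adjusted p = 0.00058).

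Of the receptors, Fzd4 was higher in adult in LOH, endothelial nuclei and both stromal clusters. In stroma 2 it rose from 47.2 and 48.8 CPM to 85.4, 75.0 and 105 CPM (-0.82 ± 0.15, edgeR adjusted p = 0.00093). In endothelial nuclei, it rose from 112 and 117 CPM to 173, 160 and 210.1 CPM (-0.68 ± 0.15, edgeR adjusted p = 0.0064), and that call was lost without either P0 sample (-0.66 and -0.68) and after thinning to 1000 open peaks (-0.65, edgeR adjusted p = 0.14). The summed level of the 13 tubule markers was also higher in adult endothelial nuclei, as in every other cluster, at 177 to 221 CPM against 127 to 129 CPM, with 9 of the 13 at a higher mean in adult and Aqp2 lower, at 2.28 CPM against 7.01 CPM. In stroma 2 their sum was higher with 10 of the 13, while Atp6v0d2 fell from 47.7 to 32.6 CPM. Their part was not tested. Fzd7 was higher in adult in PCT, at 53.0, 44.3 and 56.2 CPM against 36.9 and 36.5 CPM (-0.62 ± 0.16, edgeR adjusted p = 0.016), also lost without either P0 sample (-0.63 and -0.61 on the log2 scale) and after thinning to 1000 open peaks (-0.41, edgeR adjusted p = 0.42).

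Whether a gene's stage difference differed between clusters was tested by the interaction of stage and cluster over the 65 sums, with the sample as a block. It passed for 31 of the 40 genes, next to 58.1% of all genes, and for 20 without either P0 sample. The smallest adjusted p-values in edgeR were those of Wnt7b (2e-13), whose differences ran from -1.72 in NP to 1.28 in CNT, and Sfrp1 (5.9e-13), from -1.28 in CNT to 1.69 in stroma 1. Wnt7b, Sfrp1, Wnt5a, Wnt2 and Fzd7 were higher at P0 in some clusters and higher in adult in others.

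The stage differences were then traced to single peaks. Of the 310 peaks 206 could be tested in at least 1 cluster, and of their 683 peak and cluster pairs 216 were higher at P0 and 60 higher in adult. Over all peaks 18% and 16.0% of pairs were. Without the P0 sample numbered 1 these were 82 and 18 pairs, and without the other 101 and 23. Peaks higher at P0 were 123, peaks higher in adult 42, and 12 were both in different clusters. By place, 103 of 268 pairs in introns and 62 of 258 pairs over annotated starts were higher at P0, and 31 and 17 higher in adult. The shares of all peaks by place are not given here, so these counts are not read as a trait of these genes. All peaks described here other than those over the starts were chosen after their values were seen.

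**Figure D4:**
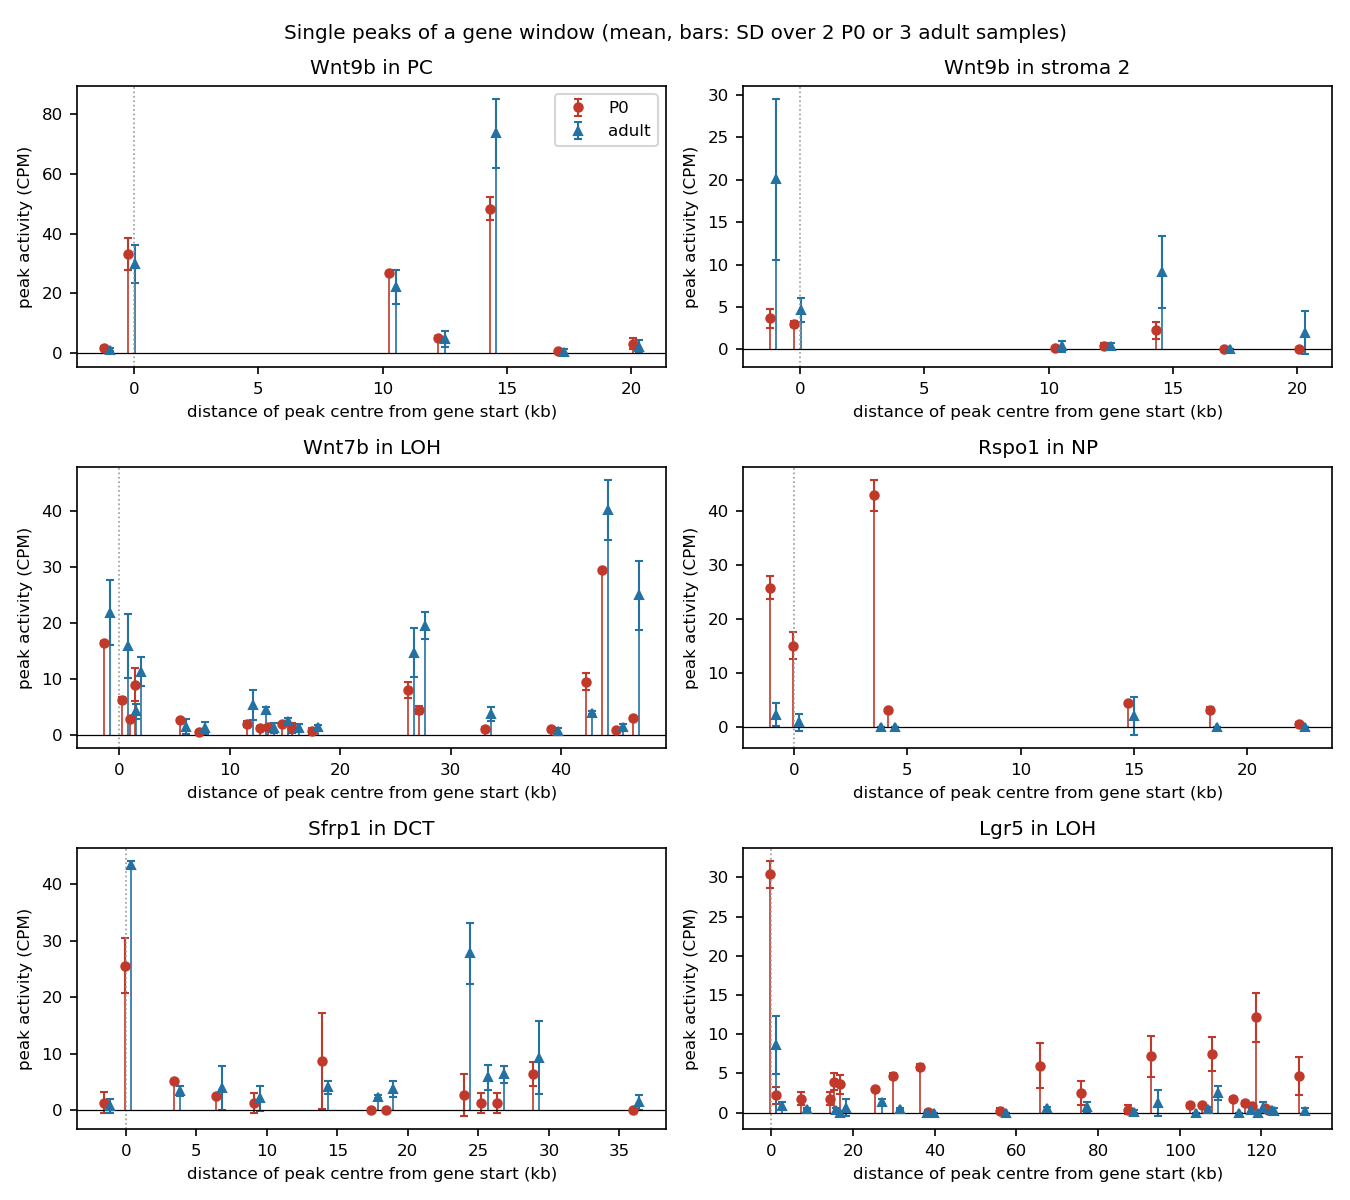
Activity of each peak in CPM (vertical axis) by its distance from the gene start in kb (horizontal axis; P0 and adult symbols are shifted slightly apart) for Wnt9b in PC and in stroma 2, Wnt7b in LOH, Rspo1 in NP, Sfrp1 in DCT and Lgr5 in LOH, as the mean with SD of 2 P0 or 3 adult samples. In stroma 2 the upstream Wnt9b peak rises from 3.66 to 20.1 CPM, and the intronic Rspo1 peak 3675 bp into the gene is at 0 in adult NP.

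In Wnt9b, an intronic peak 14442 bp into the gene (chr11:103734626-103736132, mm10) was higher in adult in 7 of 11 clusters. In stroma 1 it was at 1.83 and 4.04 CPM at P0 and 44.2, 10.1 and 26.1 CPM in adult (-3.07 ± 0.57, edgeR adjusted p = 3.9e-06). This peak was open in every tubule cluster, at 57, 54.8 and 60.5 CPM in adult PCT and 53.1, 62.0 and 67.8 CPM in adult LOH. In stroma 2 a second Wnt9b peak, at -1079 bp from the start, went from 4.43 and 2.89 CPM to 9.11, 25.5 and 25.6 CPM (-2.55 ± 0.32, edgeR adjusted p = 8.6e-07), and it passed the filter in 1 other cluster, where it was not called. It was open in 93 adult stroma 2 nuclei. Its adult means were 0.185 CPM in PCT, 0.281 CPM in PST, 0.885 CPM in LOH and 0 CPM in DCT. They were 0.537 CPM in CNT, 1.24 CPM in PC, 0.661 CPM in IC and 7.72 CPM in endothelial nuclei. The peak printed above, 10401 bp into the gene, was at 26.9 and 26.6 CPM at P0 and 16.6, 28.0 and 21.8 CPM in adult PC, and was not called in PC, the only cluster where it had enough open calls.

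In Wnt7b, 9 peaks were higher in adult LOH and 1 was higher at P0. A peak in the UTR at the far end of the gene (chr15:85535497-85535873, mm10) went from 2.83 and 3.17 CPM to 17.9, 27.5 and 29.4 CPM in LOH (-3.28 ± 0.33, edgeR adjusted p = 1.4e-08). A peak over an annotated start went from 6.61 and 5.95 CPM to 14.7, 10.9 and 22.1 CPM in LOH (-1.60 ± 0.33, edgeR adjusted p = 0.00024) and from 3.75 and 2.48 CPM to 34.6, 24.4 and 32.5 CPM in NP (-2.99 ± 0.44, edgeR adjusted p = 1.1e-10). In Sfrp1, an intronic peak 24201 bp into the gene was at 5.27 and 0 CPM in P0 DCT and 21.6, 31.9 and 29.8 CPM in adult DCT (-3.25 ± 0.75, edgeR adjusted p = 0.014). The same Sfrp1 peak was higher in adult in CNT (-2.67 ± 0.68, edgeR adjusted p = 0.0053) and LOH (-1.78 ± 0.29, edgeR adjusted p = 1.3e-05), and higher at P0 in PC (1.80 ± 0.56, edgeR adjusted p = 0.016).

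In Rspo1, an intronic peak 3675 bp into the gene (chr4:124989634-124990576, mm10) was open in 25.4% and 34.2% of NP nuclei at P0 and in no adult NP nucleus. With 606 open calls against 0, it was at least 13.3-fold higher at P0, taking 3 calls over the adult group as the floor. In LOH the same peak had means of 18 and 0.228 CPM (5.39 ± 0.53, edgeR adjusted p = 1.1e-08). The peak over the Rspo1 start was at 16.9 and 13.3 CPM in P0 NP and 0, 0 and 2.71 CPM in adult NP. Of the 25 peaks of Lgr5, 10 were higher at P0 in LOH and none in adult. An intronic peak 37250 bp into the gene had 54 open calls at P0 and 0 in adult, at least 17.1-fold higher on the same floor. The peak over the Lgr5 start in LOH fell from 31.6 and 29.2 CPM to 10.2, 11.3 and 4.33 CPM (1.73 ± 0.29, edgeR adjusted p = 2.1e-05). Lef1, also with 25 peaks, likewise had 10 higher at P0 in LOH and 0 higher in adult. As for Wnt7b, no share of all peaks in LOH stands beside these counts, and they are not read as a result about these genes.

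The peak over the Wnt4 start was higher at P0 in 6 of 8 clusters, NP among them, where it went from 41.8 and 40.1 CPM to 21.6, 21.3 and 32.5 CPM (0.95 ± 0.28, edgeR adjusted p = 0.0021). In LOH the Wnt4 start went from 17 and 18.5 CPM to 3.84, 4.23 and 3.19 CPM (2.06 ± 0.32, edgeR adjusted p = 8e-06). The peak over the Fzd4 start was higher in adult endothelial nuclei, at 125, 92.1 and 159 CPM against 72.2 and 74.9 CPM (-0.84 ± 0.23, edgeR adjusted p = 0.0073). The share of nuclei with that peak open was lower in adult, with means of 51.1% and then 35.7% in endothelial nuclei. The means were 47.4% and 36.1% in LOH, 33.4% and 29.5% in stroma 1, and 33.6% and 30.6% in stroma 2. Over all its peaks Wnt5b, the widest ligand gene with 36 peaks, had 29 pairs higher at P0 and 10 higher in adult, while its gene activity was called in NP alone (0.57 ± 0.17, edgeR adjusted p = 0.0045).

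For each of the 40 genes the peak with the largest ratio of its highest cluster to the median cluster was also taken, and 20 of these lay in introns, 7 in UTRs, 5 in exons, 5 over a start and 3 upstream. In 17 of them the highest cluster lay apart from all others. The choice by ratio favours such peaks, and no share for peaks of all genes chosen in this way is given, so the count only describes the chosen peaks. Fzd4 had such a peak in an exon, which was open in 16.8% of endothelial nuclei at P0 and was at 24.1 CPM there against 0.795 CPM in the median cluster. A Lef1 peak 98381 bp into the gene was at 15.6 ± 4.32 CPM in adult immune nuclei, on 11 nuclei, against 0.104 CPM. A Sfrp1 peak 26582 bp into the gene was at 6.31 ± 1.54 CPM in adult DCT, on 22 nuclei, against 0.0503 CPM, and a Rspo2 peak was at 6.24 ± 2.22 CPM in stroma 2 at P0, on 116 nuclei, against 0.181 CPM.

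For comparison, 51 other genes of the pathway were taken, of which 50 could be tested in the same fits. Of their 580 pairs 122 were higher at P0 (21%) and 61 higher in adult (10.5%), against 32.0% and 4.60% of the members' pairs and 14.2% and 10.97% of all genes' pairs. Other inhibitors, such as Dkk and Nkd proteins, had 49 of 124 pairs higher at P0 and 4 in adult, with a median log2 difference of 0.54. Nkd1, itself a target of canonical signalling, was higher at P0 in 9 of 13 clusters. Planar polarity genes had 24 and 4 of 89, Vangl2 among them in 7 of 12 clusters, and the co-receptors and genes of receptor turnover had 29 and 19 of 126. In that group Ptk7 was higher at P0 in 9 of 13 clusters and Lgr6 in 8 of 11, while the R-spondin receptor Lgr4 was higher in adult in 6 of 13. The cytoplasmic and nuclear genes, such as Dvl1, had 19 and 29 of 214, and Porcn and Wls, which Wnt secretion needs, with Notum, an extracellular enzyme that inactivates Wnts, had 1 and 5 of 27.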

How the data were processed

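The authors isolated nuclei from mouse kidneys at P0 and at 3 and 8 weeks of age, sequenced snATAC-seq libraries (10x Chromium), aligned them to mm10 with Cell Ranger ATAC 1.1.0 and filtered barcodes on their fragment number, the mitochondrial fraction and the promoter fraction. They used SnapATAC, with Harmony, to group the nuclei, and called peaks with MACS2 on the pooled nuclei of each cell type. The deposited matrix holds open calls as counts of 0 or 1 per nucleus and peak, binarized by the authors, and the deposited peak list and cluster names are positions and labels (other values) without a scale. Binarizing caps each peak at 1 call per nucleus, so that deeper nuclei gain calls more slowly, and peaks merged over cell types need not be open in each of them.

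Open calls were summed per cluster and sample (65 sums) over peaks overlapping a gene body or the 2 kb upstream, and divided by the sum's open calls for CPM. P0 (2 samples) was compared with adult (3 samples) in each cluster with edgeR 4.0.16 (TMM, filterByExpr with a minimum of 10 and a total of 15, quasi-likelihood test, Benjamini-Hochberg over all genes or peaks, threshold 0.05) under R 4.3.3. Sums under 20 nuclei would have been left out. Motifs, positions and sums used Python 3.11.15 with numpy 2.4.6 and pandas 2.3.3, and exact counting intervals (95%) scipy 1.17.1. Intervals and floors cover counting error only. Alternatives were DESeq2 1.42.0, its size factors, library size alone, no filter, another minimum of 50 nuclei, nuclei thinned to 1000 open peaks, equal nuclei per sample, the promoter (2 kb before to 500 bp after the start) or gene body alone, and each sample left out. The deposited sample names number a batch within each stage, and they do not say whether samples shared an animal or day. In the paper's methods P0 kidneys were lysed in a smaller volume of buffer than older kidneys. Stage therefore cannot be told apart from that step in any comparison of P0 with adult.

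By rule, statistics were given, per direction, for the 12 gene and cluster pairs with the largest log2 difference among those called without overlap of the stages, at most 3 per gene. Further pairs with statistics, such as Rspo3 in endothelial nuclei, Lgr5 in LOH and Lef1 in NP, were chosen after their values were seen. Other named values are the highest and next clusters of each gene, the start peaks, the peak of largest ratio and values chosen after they were seen. The members, lists and tests were chosen with earlier results of these data known.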

Additional observations from a re-analysis of the deposited data

Results flagged for a closer look

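The stage difference differed between clusters, by the interaction of stage and cluster in edgeR, for 31 genes, with 58.1% of all genes passing the same test. Called in both directions were Wnt7b (adjusted p = 2e-13), Sfrp1 (5.9e-13), Wnt5a (5.2e-07), from -0.92 in NP to 1.46 in endothelial nuclei on the log2 scale, Fzd7 (4.8e-05), from -0.62 in PCT to 0.67 in NP, and Wnt2 (5.7e-05), from -0.83 in endothelial nuclei to 2.22 in LOH. The stage differences of Wnt9b (7.6e-09) ranged from -2.56 in stroma 1 to 0.10 in CNT, and those of Fzd4 (1.4e-05) from -0.82 in stroma 2 to 0.21 in NP. Lef1 (9.5e-11) ranged from -1.43 in immune nuclei, not past the threshold, to 2.34 in NP, Fzd1 (2.6e-10) from -0.34 in PCT to 2.13 in NP, Wnt4 (7.9e-10) from -0.25 in PC to 1.78 in LOH, and Wnt10a (3.5e-07) from -0.42 in NP to 1.83 in stroma 2. Rspo1 (2.5e-06), Dkk1 (7.4e-05), Sfrp2 (8.3e-05), Rspo3 (9e-05), Fzd10 (0.00016), Wnt3 (0.0034), Wnt8a (0.012), Wnt16 (0.04) and Rspo2 (0.041) differed in size, with their highest values, between 2.87 and 5.32, in a cluster where they were higher at P0. The remaining genes were Fzd2 (1.6e-06), Wnt9a (3.2e-06), Wnt6 (1.4e-05), Wnt8b (2.3e-05), Lgr5 (2.4e-05), Wnt11 (0.0001), Axin2 (0.0079), Fzd6 (0.014), Wnt5b (0.019), Wnt7a (0.04) and Fzd8 (0.042). The values of the NP, LOH and tubule markers given for these clusters apply here too, and their part was not tested.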

How the results depend on the processing

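Gene and cluster pairs higher at P0 numbered 125, and 83 with DESeq2, 30 after thinning to 1000 open peaks, 72 with the promoter alone and 57 to 151 with a sample left out. Pairs higher in adult numbered 18, and 5 after thinning and 9 to 24 with a sample left out. Peak and cluster pairs higher at P0 were 216, and 387 without a filter, 135 with DESeq2, 9 after thinning, 94 with equal nuclei and 82 to 287 with a sample left out. Those higher in adult were 60, and 6 after thinning, 29 with equal nuclei and 18 to 80 with a sample left out. The interaction passed for 31 genes, for 13 after thinning, 20 with the promoter alone and 20 to 29 with a sample left out. Without the sample as a block it passed for 23, and no other block could be tied to an animal or day. Genes whose highest cluster lay apart at P0 were 19, and 10 with the promoter alone and 9 after thinning. With 1 P0 sample left all 40 lie apart by construction (40 to 40). In adult they were 9, and 4 with the promoter alone, 4 per nucleus, 4 after thinning and 15 to 18 with a sample left out, where fewer samples have to lie apart. Thinning keeps fewer open calls, and the other causes were not tested.

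Of the 308 values that the alternatives gave for the 24 pairs named by rule, 285 kept their direction and call, 23 lost the call and 0 reversed, and 28 could not be tested. These counts do not cover the other pairs given with statistics. Among the 24 pairs the calls lost were Rspo2 in PC, Wnt8a, Wnt2 and Fzd4 in endothelial nuclei, Sfrp1 in CNT and DCT, Wnt5a in NP and Fzd7 in PCT. The median of all genes ranged from -0.17 in NP to 0.12 in PCT with library size alone as the scale, and the P0 share of the members' calls was 87.4%, and 85.6% to 86.9% under the other scales, DESeq2 and thinning, where that of all genes' calls was 56.4%, and 53.6% to 58.8%.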

Other observations

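Other ligands were also higher at P0. Wnt9a passed in 5 of 12 clusters, with means of 78.5 and 30.9 CPM at P0 and in adult LOH (log2 difference 1.27 ± 0.16, edgeR adjusted p = 0.00013) and 80.2 and 39.4 CPM in CNT (1.12 ± 0.24, edgeR adjusted p = 0.0022). Wnt10a in stroma 2 had means of 25.4 ± 3.53 CPM (SD, n = 2) and 7.40 ± 1.39 CPM (SD, n = 3), a log2 difference of 1.83 ± 0.25 (edgeR adjusted p = 0.00015). Wnt7a was higher at P0 in NP, LOH and CNT, Wnt8b in NP, PCT, endothelial nuclei and stroma 2, and Wnt3a in PCT, PST, LOH and stroma 2. Wnt6 and Wnt10a were both higher at P0 in PC, by 1.01 ± 0.24 and 1.05 ± 0.23 on the log2 scale (edgeR adjusted p = 0.005 and 0.003). In NP the receptors Fzd2, Fzd3 and Fzd8 were higher at P0 by 0.73, 0.80 and 0.85 on the log2 scale, none overlapping between the stages, beside the adult NP marker values given above.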
